A study of Mus musculus with 4 samples.

Results

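The genes described here are the constant genes of mouse antibodies together with the J chain gene. They are 10 of the 21027 genes present in both count tables: the heavy chain constant genes Igha, Ighm, Ighg1, Ighg2b and Ighg2c, the light chain constant genes Igkc, Iglc1, Iglc2 and Iglc3, and Jchain. The list is a fixed set of gene names, and the rule uses none of their values. Plasma cells were taken by a gate of 3 or more unique molecular identifiers (UMIs, 1 per captured transcript molecule) summed over Mzb1, Derl3 and Tnfrsf17, none of which is a member. The gate took 394 of 1906 cells in replicate 1 and 27 of 4179 cells in replicate 2.

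The study measured lymphocytes of the small-intestinal lamina propria with single-cell RNA sequencing (BD Rhapsody). All cells came from 1 genotype, Cxxc1flox/flox with a cre transgene, in mice of 6 to 8 weeks, so the floxed Cxxc1 gene, to be deleted where the cre is active, is shared by both replicates, and no Cxxc1-sufficient group was used here. The 4 libraries are 2 replicates with 2 libraries each, replicate 1 being sample tag 4 of one capture and replicate 2 sample tag 2 of another. Whether different mice gave the 2 replicates is not stated in the labels, so any p-value measures only the spread between these samples, which may be technical.

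Plasma cells are B lineage cells that secrete antibody. An antibody is built of paired heavy and light chains, and a plasma cell as a rule uses 1 heavy chain isotype and 1 light chain, kappa or lambda. In the gut most plasma cells make IgA, whose heavy chain constant region is encoded by Igha. In secreted IgA, antibody units are joined by the J chain, and the joined form is carried across the epithelium by the polymeric immunoglobulin receptor. IgM, encoded by Ighm, is made before class switching and is also joined by the J chain. In the mouse, lambda light chains are a small minority.

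The labels name the sorted cells as group 3 innate lymphoid cells (ILC3s), and cells of other kinds were present beside them. Tagged cells numbered 2077 and 4532 in replicates 1 and 2, with 11939862 and 12141164 UMIs. After filtering, the median cell held 4200 UMIs in replicate 1 and 2364 UMIs in replicate 2. The 2 captures share 135 cell indices, 7 of them among the tagged cells. The targeted gene Cxxc1 stood at 74.4 CPM (its share of all UMIs of those cells, in parts per 1000000) in plasma cells of replicate 1 and 51.3 CPM in those of replicate 2, and at 42.2 and 47.5 CPM in cells assigned to the ILC3 marker list. The deleted part of Cxxc1 is not given in the sources used here, so these levels do not check the labels. Plasma cells made up 20.7% of cells in replicate 1 (95% exact binomial interval 18.9 to 22.6) and 0.646% in replicate 2 (0.426 to 0.939). Every interval here covers counting error alone, with cells or UMIs counted as independent, and cells are not replicates.

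The members dominated the transcripts of plasma cells. In replicate 1 they supplied 43.7% of all UMIs of the gated cells, with a median of 50.8% per cell. In replicate 2 they supplied 49.0%, with a median of 54.0% per cell. In cells with 0 gate UMIs the medians were 0.399% in replicate 1 and 0.0273% in replicate 2.

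Igha had a lowest, median and highest value of 5, 1228.5 and 3149 UMIs per plasma cell in replicate 1, against 0, 5 and 340 UMIs in the 1334 cells with 0 gate UMIs. In replicate 2 Igha had 39, 1456 and 2334 UMIs per plasma cell, against 0, 0 and 802 UMIs in the 4122 cells with 0 gate UMIs. The ranges overlapped in both replicates while the medians lay far apart. Igkc, the constant gene of every kappa light chain, had 10, 2335.5 and 5362 UMIs per plasma cell in replicate 1, against 0, 11 and 2604 UMIs in cells with 0 gate UMIs. In replicate 2 Igkc had 20, 2399 and 3873 UMIs per plasma cell, against 0, 0 and 1733 UMIs. Jchain had 0, 462.5 and 1400 UMIs per plasma cell in replicate 1, against 0, 1 and 87 UMIs, and in replicate 2 it had 2, 469 and 859 UMIs, against 0, 0 and 277 UMIs. The other members had medians of 0 to 9 UMIs per plasma cell in both replicates, with high values in a few cells, and medians of 0 in cells with 0 gate UMIs.

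**Figure D1:**
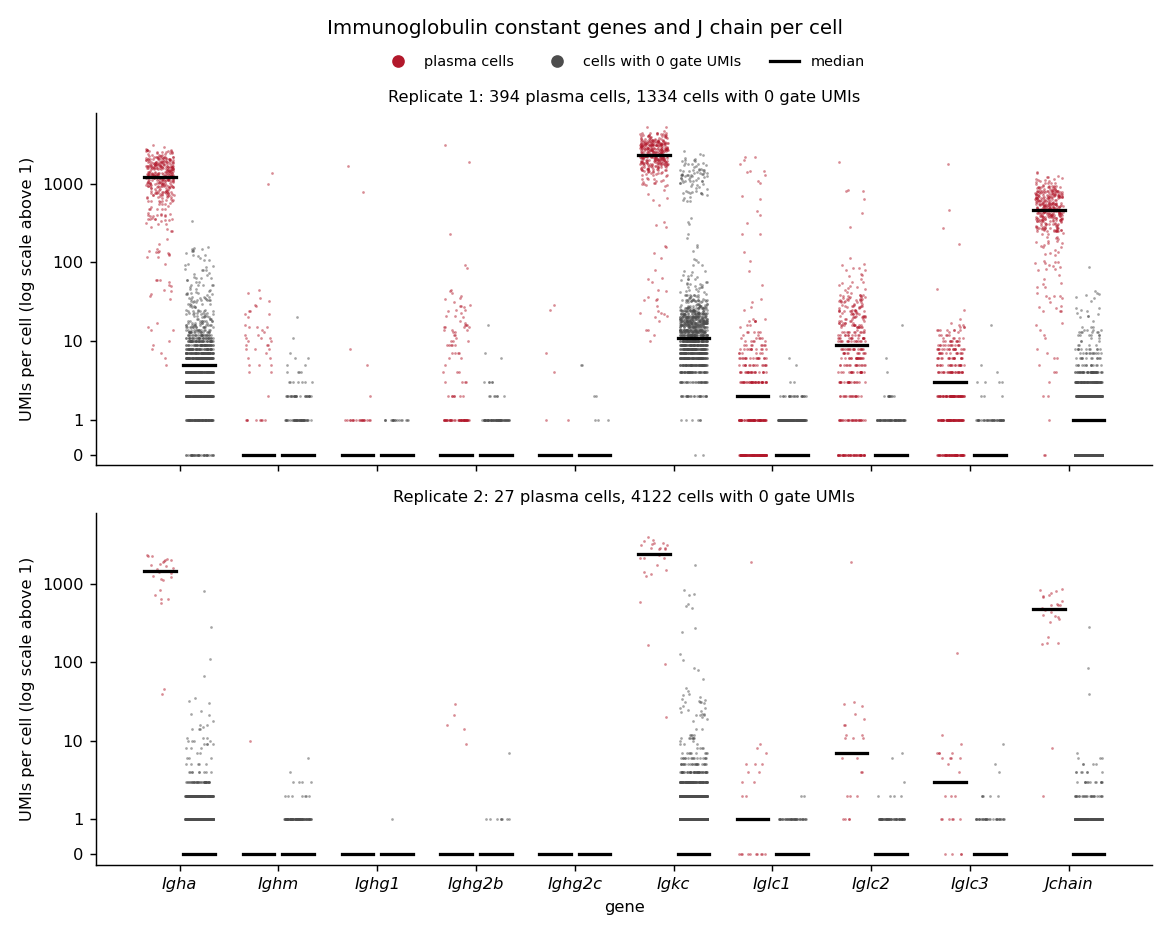
UMIs per cell (vertical axis, logarithmic above 1) of the 10 genes in plasma cells (red) and in cells with 0 gate UMIs (grey), with replicate 1 above replicate 2. Each point is 1 cell and each black line a median. Igha, Igkc and Jchain are high in nearly all plasma cells, the IgM, IgG and lambda genes in a few, and a separate band of grey cells holds more than 100 Igkc UMIs.

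The heavy chain genes lie in 1 block of chromosome 12 on the minus strand (GRCm38). In the order in which they are transcribed, Ighm comes first at chr12:113418558-113422730, then Ighg1 at chr12:113325240-113330523, Ighg2b at chr12:113302965-113307933 and Ighg2c at chr12:113285325-113288932. Igha comes last at chr12:113254830-113260236. Class switching joins the rearranged variable region to 1 of the downstream genes.

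Igha was the dominant isotype in almost every plasma cell. A cell was assigned to an isotype when it held at least 3 heavy chain UMIs of the 5 genes and 1 gene gave at least 50% of them, and all plasma cells could be assigned. Igha was dominant in 386 of 394 plasma cells in replicate 1 (98.0%, 95% interval 96.0 to 99.1) and in 27 of 27 in replicate 2 (lower bound 87.2%). In 331 of the 386 IgA cells of replicate 1, and in 26 of the 27 of replicate 2, Igha gave at least 99% of the heavy chain UMIs. Cells with 0 gate UMIs held a median of 5 Igha UMIs in replicate 1, so such a level alone can meet the rule. Gated cells with 9 Igha and 8 Ighm UMIs, or with 6 and 5, were also called IgA. With the mean of cells with 0 gate UMIs subtracted, 383 of 393 assigned cells of replicate 1 were IgA (97.5%).

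The other 8 cells were all in replicate 1. Ighg1, the constant gene of IgG1, was dominant in 2 cells, which held 1672 and 786 Ighg1 UMIs beside 15 and 17 Igha UMIs. Ighg2b, the constant gene of IgG2b, was dominant in 2 cells, with 3109 and 1884 Ighg2b UMIs beside 14 and 59 Igha UMIs. Those Igha values lie within the range of cells with 0 gate UMIs but above their upper quartile of 9 UMIs, and the part of depth was not tested. Ighm was dominant in 4 cells. A pair of them held 1380 and 989 Ighm UMIs beside 34 and 7 Igha UMIs, and had 514 and 422 Jchain UMIs.

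The other pair of Ighm cells held only 15 and 10 Ighm UMIs, with 33 and 10 Igkc UMIs and 2 and 0 Jchain UMIs. Both passed the gate narrowly, with 3 and 5 gate UMIs, and among the other marker lists both held most UMIs of the dendritic cell list. Cells with 0 gate UMIs assigned to that list averaged 1.53 Ighm UMIs in replicate 1, against 0.0753 in ILC3-list cells, at median depths of 10193 and 3497 UMIs. The part of dendritic cells in these 2 calls was not tested. Ighg2c, the constant gene of IgG2c, was dominant in 0 of 394 and 0 of 27 cells, and the limit that 3 counts set puts the share at up to 0.761% in replicate 1 and up to 11.1% in replicate 2.

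A minority of IgA cells held transcripts of a further isotype. In replicate 1, 41 of 386 IgA cells held 10 or more Ighg2b UMIs, the highest 229, against 1 of 1334 cells with 0 gate UMIs. Ighm reached 10 UMIs in 22 IgA cells, the highest 45, against 2 cells with 0 gate UMIs. Ighg1 reached 10 UMIs in 0 IgA cells and Ighg2c in 2. In replicate 2, 4 of 27 IgA cells held 10 or more Ighg2b UMIs and 1 held 10 Ighm UMIs, against 0 of 4122 cells with 0 gate UMIs for either gene. The threshold of 10 UMIs was set with the values known. An Ighg2b UMI was seen in 28.8% of IgA cells in replicate 1 against 6.3% of cells with 0 gate UMIs, at median depths over all plasma cells of 9337.5 UMIs and in cells with 0 gate UMIs of 3600.5 UMIs. The Ighg genes are close paralogs and the deposited counts could divide shared reads between them.

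The kappa constant gene Igkc is alone at chr6:70726435-70726966 (plus strand), whereas the lambda genes Iglc1, Iglc2 and Iglc3 lie on chromosome 16, on the minus strand. The last 90 coding bases of each are shown because the assay primes at the RNA tail, so reads fall near this end. They were read from GENCODE vM21 transcripts (GRCm38) and are written 5′ to 3′ along the transcript. Capitals mark bases that differ from Iglc2 at the same place, with no gap allowed.
Iglc2 (chr16:19198539-19198628, minus strand): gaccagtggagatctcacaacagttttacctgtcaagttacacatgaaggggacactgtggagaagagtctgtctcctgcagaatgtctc
Iglc3 (chr16:19065368-19065457, minus strand): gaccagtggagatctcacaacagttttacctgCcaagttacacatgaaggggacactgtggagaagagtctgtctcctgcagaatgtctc
Iglc1 (chr16:19061755-19061844, minus strand): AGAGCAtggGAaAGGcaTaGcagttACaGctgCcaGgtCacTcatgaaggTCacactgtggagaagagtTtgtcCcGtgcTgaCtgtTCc

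Iglc3 differs from Iglc2 at 1 of these 90 bases and at 11 of 314 compared coding bases, so reads of the 2 genes may be counted for either. Iglc1 differs from Iglc2 at 29 of the 90 bases. The division between Iglc2 and Iglc3 is therefore uncertain in every value below, while their sum and Iglc1 are less exposed to it.

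Kappa was the light chain of most plasma cells. A cell was classed as kappa when Igkc gave at least 80% of its light chain UMIs, as lambda when it gave at most 20%, and as mixed in between, with at least 3 light chain UMIs. Replicate 1 had 369 kappa cells (93.7%, 95% interval 90.8 to 95.9), 15 lambda cells (3.81%, 2.15 to 6.20) and 10 mixed cells (2.54%, 1.22 to 4.62). Replicate 2 had 25 kappa cells (92.6%, 75.7 to 99.1), 1 lambda cell and 1 mixed cell. The kappa to lambda ratio was 24.6 by cells in replicate 1 (interval 14.7 to 44.4) and 25 in replicate 2 (4.09 to 1026.4). By UMIs it was 26.0 in replicate 1 and 14.0 in replicate 2, where 1 lambda and 1 mixed cell held most lambda UMIs.

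Igha was dominant in each of the 15 lambda cells of replicate 1 and in the 1 of replicate 2. In replicate 1 Iglc1 led in 8 of the 15, with 645 to 2222 Iglc1 UMIs, and these cells held 20 to 64 Igkc UMIs. Iglc2 led in 5 cells with 34 to 1882 Iglc2 UMIs, and Iglc3 led in 2 cells with 459 and 1770 Iglc3 UMIs. In the Iglc3-led cells Iglc2 stood at 3 and 27 UMIs, and in the Iglc2-led cells Iglc3 stood at 8 to 46 UMIs. The lambda cell of replicate 2 held 1877 Iglc1 UMIs and 20 Igkc UMIs. Igkc in lambda cells of replicate 1 ran from 12 to 115 UMIs. Cells with 0 gate UMIs had a median of 11 and an upper quartile of 19 Igkc UMIs, and a highest value of 2604. The Iglc1-led cells lay above that quartile, and the other lambda cells lay on both sides of it. Lambda cells held a median of 8901 UMIs in all, against 3600.5 in cells with 0 gate UMIs, and the part of depth was not tested.

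Lambda transcripts also occurred at low counts in kappa cells. The median kappa cell of replicate 1 held 9 Iglc2 UMIs, 2 Iglc3 UMIs and 2 Iglc1 UMIs, and that of replicate 2 held 7, 3 and 1, against medians of 0 for each of the 3 genes in cells with 0 gate UMIs. Kappa cells also held more UMIs in all, and the part of depth in this was not tested. Over all plasma cells, lambda and mixed cells included, Igkc gave a median of 99.3% of a cell's light chain UMIs in both replicates.

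Some cells held both light chains at high counts. With a threshold of 200 UMIs for each, set after the values were seen, replicate 1 had 11 such cells (2.79% of plasma cells) with 985 to 3524 Igkc UMIs and 238 to 2028 lambda UMIs. Of these, 7 were classed as mixed and 4 as kappa, and Iglc1 led the lambda UMIs in 8. Their medians were 10168 UMIs, 2387 genes and 52 gate UMIs, against 9291 UMIs, 1841 genes and 21 gate UMIs in the other kappa cells. Replicate 2 had 1 such cell, with 588 Igkc and 1998 lambda UMIs. The part of doublets was not tested.

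**Figure D2:**
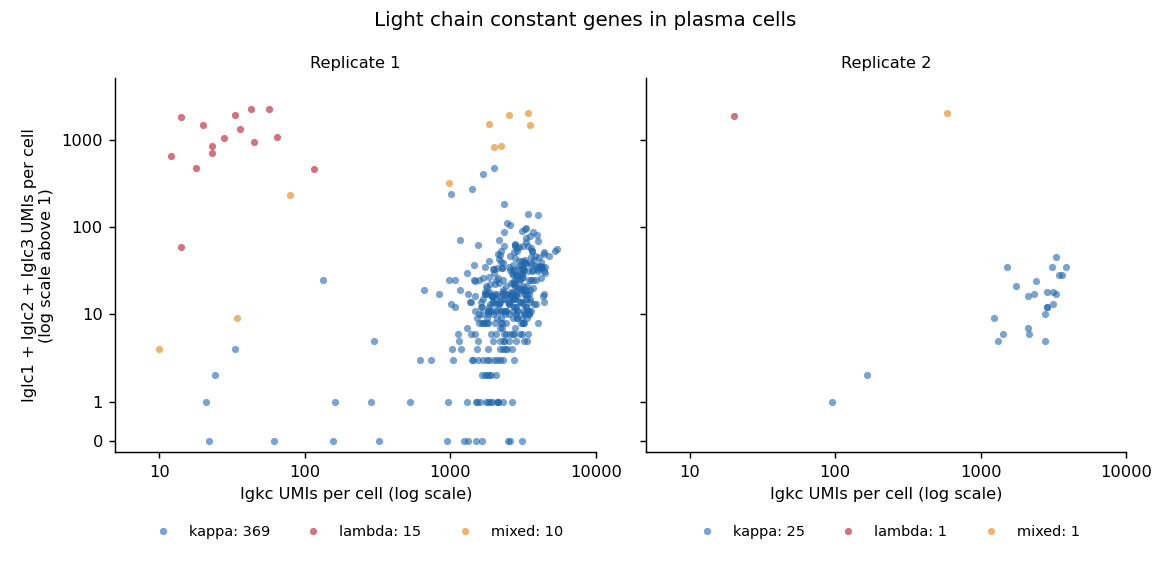
Igkc UMIs (horizontal axis, logarithmic) against the sum of Iglc1, Iglc2 and Iglc3 UMIs (vertical axis, logarithmic above 1) per plasma cell, coloured by light chain class. In replicate 1 the 15 lambda cells sit apart from the 369 kappa cells at 12 to 115 Igkc UMIs, and mixed cells with high counts of both lie at the upper right.

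Jchain, which encodes the joining chain of IgA and IgM polymers (chr5:88519809-88527891, minus strand), was seen in 392 of 394 plasma cells of replicate 1 and in 27 of 27 of replicate 2. In IgA cells the median ratio of Jchain to heavy chain UMIs was 0.376 in replicate 1 and 0.310 in replicate 2. In the non-IgA cells of replicate 1 the ratio was 0.364 and 0.424 in the pair of Ighm cells with many Ighm UMIs, and 0.087 and 0 in the pair with few. It was 0.332 and 0.061 in the Ighg1 cells and 0.166 and 0.159 in the Ighg2b cells. These cells were too few, in 1 replicate, for a test. The IgG1 cells held 560 and 49 Jchain UMIs and the IgG2b cells 520 and 309. Of these values only the 49 lay within the range of 0 to 87 UMIs of cells with 0 gate UMIs. All lay within the range of 0 to 700 UMIs of cells with 1 or 2 gate UMIs, whose median was 4 UMIs.

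Across IgA kappa cells, log2 values of Igha and Jchain had a Pearson correlation of 0.97 (362 cells) in replicate 1 and 0.98 (25 cells) in replicate 2. For Igha and Igkc the correlations were 0.85 and 0.98. Both genes of a pair share the cell's depth, and Igha correlated with total UMIs at 0.61 and 0.74. Igkc per Igha had a median of 1.91 in replicate 1 and 1.87 in replicate 2, and the middle 50% of cells spanned 1.66 to 2.33 and 1.68 to 2.11.

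Over 14 sums of UMIs, 1 for each of 7 marker-defined classes in each replicate, the 5 genes whose log2(CPM + 1) was most like that of Jchain were Xbp1 (Pearson r 0.951), Ccr10 (0.947), Cd79a (0.944), Txndc5 (0.926) and Pou2af1 (0.914), among 371 genes considered. Ccr10, a chemokine receptor of mucosal plasma cells, stood at 265.5 and 222.5 CPM in plasma cells of replicates 1 and 2, against at most 3.16 and 0.296 CPM in any other class. Xbp1, a transcription factor of the secretory programme, stood at 1435 and 1082 CPM, against at most 205.5 and 181.9 CPM. The genes considered were those with at least 50 UMIs in the plasma cells of each replicate, without immunoglobulin and gate genes. This filter favours genes of plasma cells, so the ranking is no independent support. The sums share libraries, and the plasma cell sums set the pattern.

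The members were also examined across the gate, as its threshold decides which cells count. In replicate 1 the 31 cells just inside it (3 or 4 gate UMIs) had medians of 137 Igha, 1489 Igkc and 24 Jchain UMIs, against 20, 81 and 4 UMIs in the 178 cells just outside (1 or 2 gate UMIs). In replicate 2 the 4 cells just inside had medians of 344, 738 and 92 UMIs, against 1, 1 and 0 in the 30 cells just outside. Cells with 5 or more gate UMIs had Igha medians of 1040.5 UMIs or more in replicate 1.

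A set of cells outside the gate held many Igkc transcripts and few Igha transcripts. Of the cells with 0 gate UMIs, 93 of 1334 in replicate 1 and 11 of 4122 in replicate 2 had 100 or more Igkc UMIs, a threshold set after the values were seen. In replicate 1 these held medians of 1181 Igkc, 40 Igha and 8 Jchain UMIs, and in replicate 2 of 515, 21 and 3 UMIs. Igkc exceeded 10 times Igha in 81 of the 93 cells and in 6 of the 11, against 15 of 394 plasma cells in replicate 1 and 0 of 27 in replicate 2. The 93 cells held 86.8% of the Igkc UMIs of all cells with 0 gate UMIs in replicate 1. Of cells with 1 or 2 gate UMIs, 87 of 178 in replicate 1 and 4 of 30 in replicate 2 also reached 100 Igkc UMIs. In replicate 1 those 87 cells held medians of 1561 Igkc and 78 Igha UMIs, 523 genes and 11.2% mitochondrial UMIs. The median Igkc per Igha was 26.6 in the 93 cells, 19.5 in the 87 and 4.95 in gated cells with 3 or 4 gate UMIs.

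The 93 Igkc-rich cells with 0 gate UMIs in replicate 1 held few other transcripts. Their median was 454 detected genes, against 1687 in the other cells with 0 gate UMIs, with 13.4% mitochondrial UMIs against 6.59%. Malat1, a nuclear RNA, gave 2.20% of their UMIs of other genes, against 0.314%. In replicate 2 the 11 cells had a median of 1417 genes, 6.76% mitochondrial UMIs and 0.370% Malat1, against 1194 genes, 6.80% and 0.341% in the others. The replicates therefore differed in this respect. Of the 93 cells, 70 held 3 or more UMIs of the stromal cell marker list, a larger share than the 49.9% of all cells with 0 gate UMIs. Their median of UMIs of other genes was lower, at 991 against 3670 in the other cells with 0 gate UMIs. The part of RNA quality or of other cell types in these cells was not tested.

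**Figure D3:**
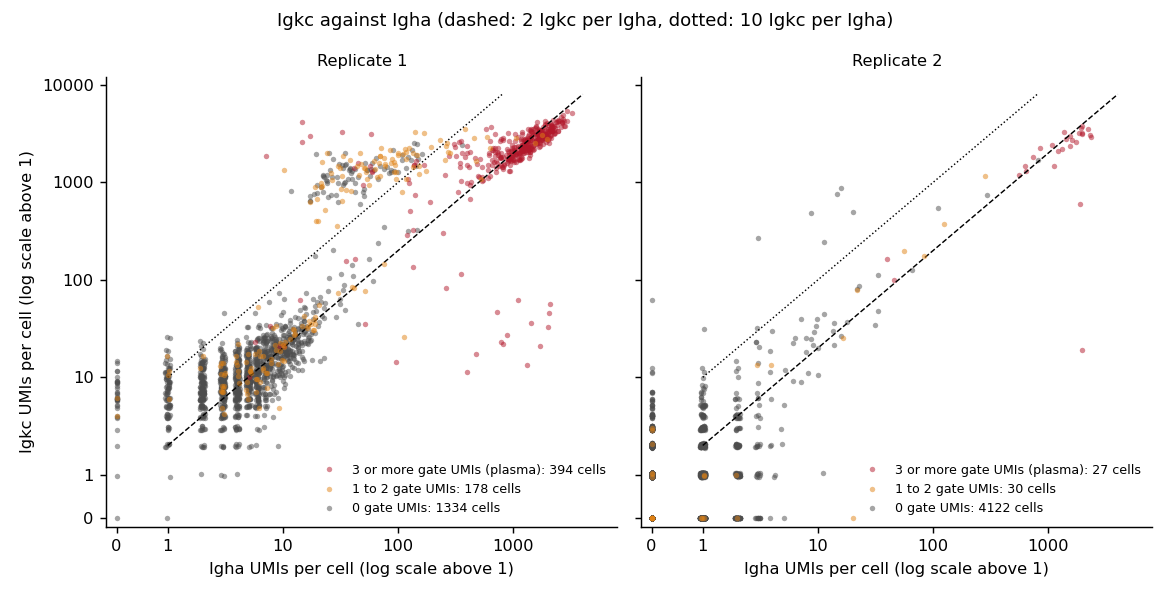
Igkc UMIs (vertical axis) against Igha UMIs (horizontal axis) per cell, both logarithmic above 1, with points moved slightly at random to show ties, coloured by gate UMIs. The dashed line marks 2 Igkc UMIs per Igha UMI and the dotted line 10. Most plasma cells and most other cells of replicate 1 lie near the dashed line, lambda cells lie below it, and most Igkc-rich cells of replicate 1 lie above the dotted line.

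Cycling plasma cells held fewer Igha, Igkc and Jchain transcripts per cell, by median, than non-cycling ones. Cycling cells had 3 or more UMIs over a list of 20 cell cycle genes and non-cycling cells had 0, which gave 119 and 161 cells in replicate 1 and 2 and 20 cells in replicate 2. Plasma cells with 1 or 2 such UMIs, 114 in replicate 1 and 5 in replicate 2, were left out of both classes. Their medians were 1326 Igha, 2663 Igkc and 529.5 Jchain UMIs in replicate 1, and 1519, 2399 and 469 UMIs in replicate 2. Igha had a lowest, median and highest value of 7, 933 and 2080 UMIs per cycling cell in replicate 1, against 5, 1398 and 2674 UMIs per non-cycling cell. The 2 cycling cells of replicate 2 held 570 and 836 Igha UMIs, against 45, 1476.5 and 2334 UMIs in non-cycling cells. Igkc had medians of 1846 UMIs in cycling and 2597 UMIs in non-cycling cells of replicate 1, and of 1689 and 2745 UMIs in replicate 2. Jchain had medians of 358 and 536 UMIs in replicate 1, and of 189.5 and 513 UMIs in replicate 2. The ranges of the classes overlapped for all 3 genes.

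Cycling cells held more UMIs of genes that are not immunoglobulin genes, with medians of 7912 per cycling cell and 3394 per non-cycling cell in replicate 1. The members accordingly took a median of 27.6% of the UMIs of cycling cells, against 58.0% of those of non-cycling cells, and in replicate 2 of 25.5%, against 58.2%. As CPM, Igha stood at 78549 in cycling and 165076 in non-cycling cells of replicate 1, and at 66905 and 180086 in replicate 2.

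**Figure D4:**
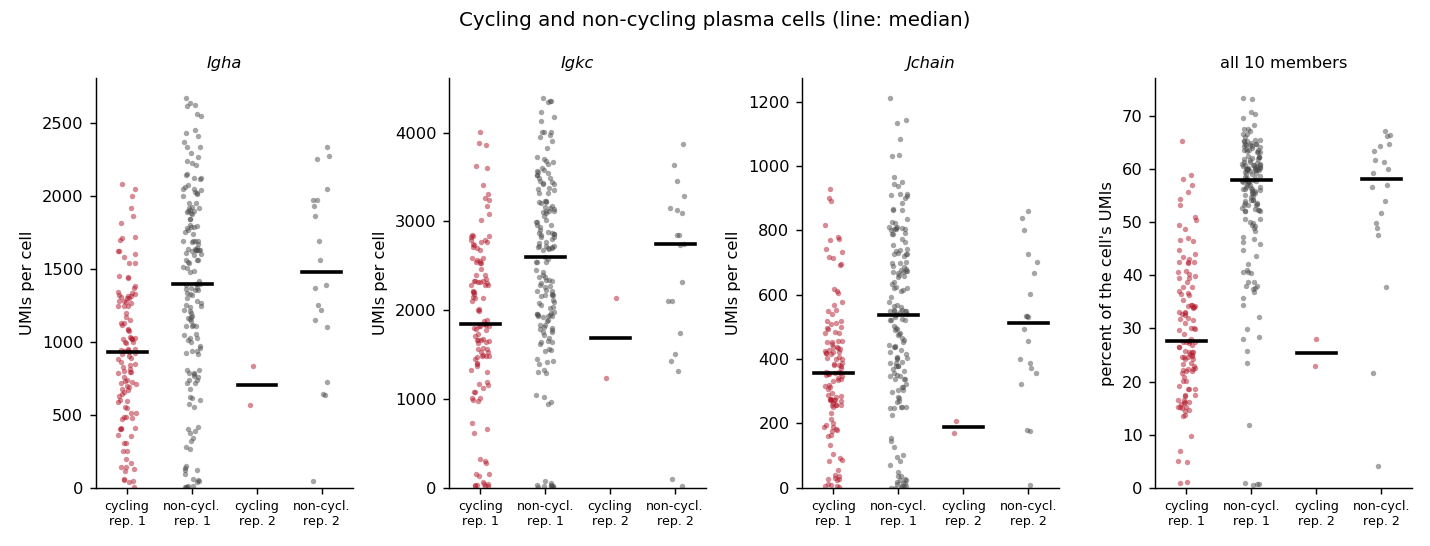
UMIs per cell of Igha, Igkc and Jchain, and the percent of the cell's UMIs that came from all 10 members, in cycling (red) and non-cycling (grey) plasma cells of each replicate. Points are cells and lines are medians. In both replicates the cycling medians are the lower ones, and replicate 2 has only 2 cycling cells.

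UMIs summed per class and replicate were fitted with edgeR's quasi-likelihood test with replicate as a block (5584 genes, Benjamini-Hochberg adjustment). At an adjusted p under 0.05, 204 genes were lower in cycling cells (3.65%) and 108 were higher (1.93%), 5.59% in all. Of the 8 members tested, 5 were lower and 0 higher. Their median log2 fold change, cycling over non-cycling, was −2.24, against −0.24 for all genes tested. Ighg1 and Ighg2c were too low in these sums to test. The 2 Ighg1 cells had 2 and 1 cell cycle UMIs and so were in neither class. Cells with 1 or 2 such UMIs held 2472 Ighg1 UMIs in replicate 1.

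Jchain fell by 2.53 on the log2 scale (SE 0.82, adjusted p = 0.0398). For Igha the log2 value was −2.40 (SE 1.03, adjusted p = 0.202) and for Igkc −2.05 (SE 1.17, adjusted p = 0.45), neither past the threshold. All fitted values of this comparison depend on the scaling of the sums (TMM) and are not changes in UMIs per cell. Log2 ratios of CPM without that scaling were smaller in size. In replicates 1 and 2 they were −1.015 and −1.755 for Jchain, −1.072 and −1.428 for Igha, and −0.940 and −0.852 for Igkc. Over the 11 settings of this fit the 3 genes were negative in each, but the call was not stable. With library size counted over genes that are not immunoglobulin genes, Igha stood at −2.01 (adjusted p = 1.72e-58) and Igkc at −1.65 (adjusted p = 1.26e-49). Adjusted p over all settings ran from 1.72e-58 to 0.849 for Igha, from 1.26e-49 to 0.922 for Igkc and from 5.64e-47 to 0.591 for Jchain. Without the replicate block the adjusted p was 0.00101 for Igha and 0.00608 for Igkc. The fit has 1 residual degree of freedom, and the cycling sum of replicate 2 is 2 cells. The prior degrees of freedom were estimated as infinite, so the quasi-likelihood spread was shared over genes. A small adjusted p here therefore does not measure a gene's own spread between the replicates.

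Ratios between the members were also compared, with no test. Igkc per Igha was 2.01 in cycling and 1.83 in non-cycling cells of replicate 1, and 2.40 and 1.61 in replicate 2. Jchain per Igha was 0.397 and 0.382 in replicate 1, and 0.270 and 0.338 in replicate 2, so this ratio was higher in cycling cells of replicate 1 and lower in those of replicate 2.

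The rarer members rest on few cells. Ighg2b fell by 4.79 on the log2 scale (SE 0.55, adjusted p = 2.62e-15), and 1 non-cycling cell held 83.0% of the Ighg2b UMIs of its sum. With IgA kappa cells alone, a setting added after seeing the data, its value was −2.60 (adjusted p = 8.04e-08, range over settings 4.86e-39 to 8.42e-05). Iglc1 fell by 3.39 (SE 0.77, adjusted p = 0.00055), where 1 non-cycling cell held 97.7% of its sum in replicate 2 and the cycling sum there was 0. Without replicate 2 its value was −0.03, and in IgA kappa cells alone it was −1.22 (adjusted p = 0.0531, range over settings 1.55e-23 to 0.999). As a log2 ratio of CPM, without the fit's scaling, Iglc1 stood at 0.520 in replicate 1, higher in cycling cells, and at −13.521 in replicate 2. Iglc2 fell by 2.08 (SE 0.47, adjusted p = 0.000595) and Iglc3 by 1.92 (SE 0.44, adjusted p = 0.000561). With DESeq2 neither passed (adjusted p = 0.181 for Iglc2 and 0.266 for Iglc3), and over all settings the adjusted p ran from 3.29e-10 to 0.181 for Iglc2 and from 6.94e-06 to 0.266 for Iglc3. Ighm stood at 0.87 (SE 0.54, adjusted p = 0.513) and did not pass, and 1 cycling cell held 86.8% of its sum in replicate 1.

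Isotype and light chain class were counted in both states. Igha was dominant in 118 of 119 cycling and 158 of 161 non-cycling cells of replicate 1 (99.2%, with a lower bound of 95.4%, and 98.1%, 94.7 to 99.6). Lambda cells were 7 of 119 cycling and 5 of 161 non-cycling cells (5.88%, 2.40 to 11.7, and 3.11%, 1.02 to 7.10). In replicate 2 lambda cells were 0 of 2 cycling and 1 of 20 non-cycling cells. The difference between the states was not tested.

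Other genes of antibody production were counted against the same share of 3.65% of all genes lower. Of 12 regulators of plasma cells 3 were lower in cycling cells, namely Xbp1 (log2 fold change −2.03, adjusted p = 0.000305), Tent5c, which stabilises immunoglobulin transcripts, and Trp53inp1, and 0 were higher (median −0.92). Of 26 genes of the endoplasmic reticulum and antibody folding 3 were lower, namely Herpud1, Dnajb9 and Sel1l, and 0 higher (median −0.33). Of 12 gut homing and niche genes Sdc1, which encodes CD138, was the 1 lower gene (median −0.75). Of the 12 genes of B cell identity and class switch 3 could be tested and Cd79a was lower, with −1.96. Of the 10 antibody receptor genes 2 could be tested and Fcgr2b was lower, with −2.12. Of 75 immunoglobulin variable, diversity and joining genes 47 were lower and 0 higher (median −2.23). These calls are relative to the other genes of the sums and need not mean fewer UMIs per cell. Sel1l, for one, held 358 UMIs over the 119 cycling and 376 over the 161 non-cycling cells of replicate 1. As log2 ratios of CPM, without the fit's scaling, Tent5c stood at −0.527 in replicate 1 but 0.152 in replicate 2. The other genes named here as lower were negative in both replicates. On this measure most genes of the endoplasmic reticulum list and of the gut homing list were positive in each replicate. In replicates 1 and 2 Canx stood at 1.514 and 0.877 and Itga4 at 1.073 and 1.301, whereas Ssr4 stood at −0.085 and −0.026. The negative medians of these lists therefore depend on the scaling of the sums.

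The 5 genes with the largest rises outside these groups were the following, in classes that were themselves taken by cell cycle genes. Kif4 (98 UMIs over the cycling sums), Cdkn3 (105) and Cenph (50) had 0 UMIs in non-cycling cells, which makes them at least 34.1-fold, 36.6-fold and 17.4-fold higher, set against 3 counts over the group. Pclaf (log2 fold change 7.80) and Cdc20 (6.71) followed. The 5 with the largest falls were Serpina3f (−4.12), Osgin1 (−3.65), Trf, the gene of transferrin (−3.32), Serpina3g (−3.29) and Slpi, a secreted protease inhibitor (−3.25).

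Among cells with 0 gate UMIs, members were found in cells of every class, at levels that differed between the replicates. In replicate 1, 97.3% of cells with 0 gate UMIs held an Igha UMI (95% interval 96.3 to 98.1) and 1332 of 1334 an Igkc UMI. In replicate 2 the shares were 24.2% (22.9 to 25.5) and 41.9% (40.4 to 43.4). Plasma cells were 20.7% of the cells of replicate 1 and 0.646% of those of replicate 2, and the part of this in the background was not tested. With each cell thinned to 1000 UMIs, the shares with Igha were 68.7% in replicate 1 and 11.5% in replicate 2, and with Igkc 91.4% and 21.4%, with 0 and 301 cells too shallow to use.

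Lymphocytes that do not make antibody showed the level of this background. Cells of the ILC3 list averaged 5.81 Igha, 22.6 Igkc and 1.18 Jchain UMIs in replicate 1, at a median depth of 3497 UMIs, and 0.409, 1.57 and 0.0789 UMIs in replicate 2, at a median depth of 2868 UMIs. T cell-list cells averaged 4.32 Igha UMIs in replicate 1 and 0.364 in replicate 2. Leaving out the Igkc-rich cells, Igkc averaged 11.5 UMIs in ILC3-list and 10.3 UMIs in T cell-list cells of replicate 1. In stromal-list cells, at a median depth of 6612 UMIs, Igkc averaged 203 UMIs with the Igkc-rich cells and 17.4 without.

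Igkc per Igha was 1.92 in plasma cells and 2.33 in cells with 0 gate UMIs in replicate 1, leaving out the Igkc-rich cells, and 1.61 and 2.42 in replicate 2. By class of cells with 0 gate UMIs it lay between 1.95 and 2.79 in replicate 1 for the 7 classes of at least 20 cells. Jchain per Igha was 0.394 in plasma cells and 0.185 in cells with 0 gate UMIs in replicate 1, and 0.336 and 0.218 in replicate 2. Ighm per Igha was 0.00611 in plasma cells and 0.0259 in cells with 0 gate UMIs in replicate 1, again without the Igkc-rich cells.

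**Figure D5:**
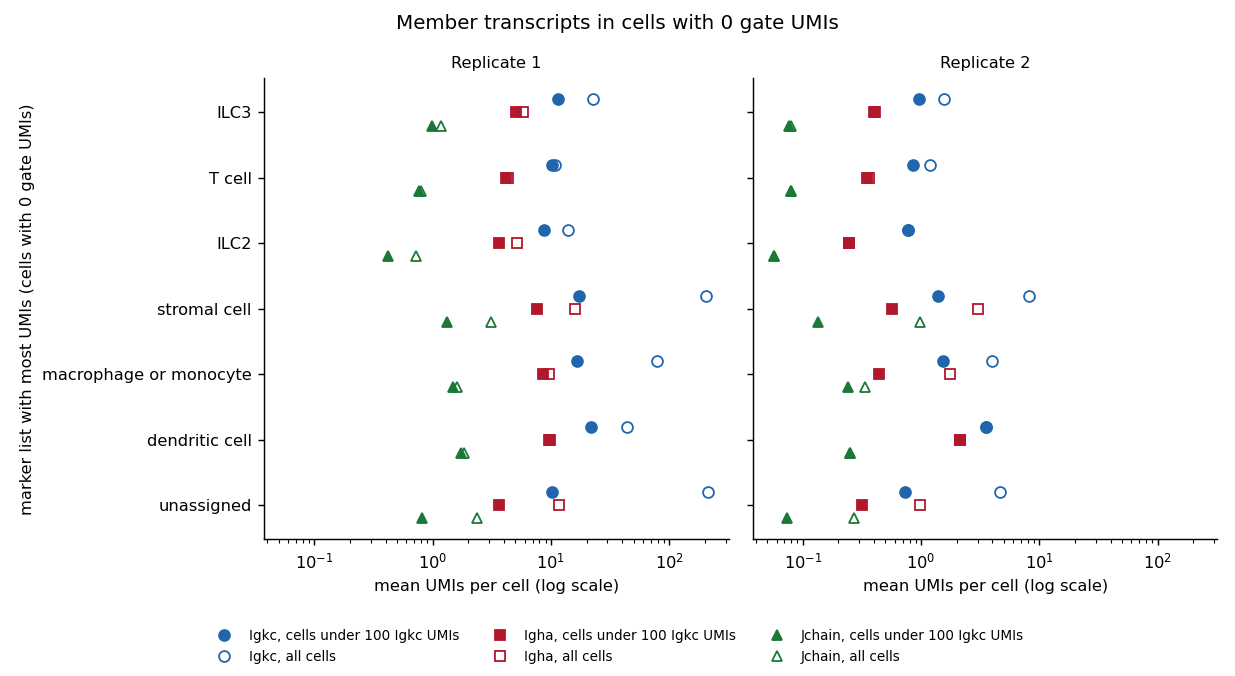
Mean UMIs per cell (horizontal axis, logarithmic) of Igkc, Igha and Jchain in cells with 0 gate UMIs, by the marker list that holds most of their UMIs. Filled symbols leave out cells with 100 or more Igkc UMIs and open symbols include them. In ILC3-list cells Igkc stands at 11.5 UMIs in replicate 1 without those cells and at 0.962 UMIs in replicate 2.

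Markers of other cell types were found in the gated cells too. The stromal cell list reached 3 UMIs in 82.0% of plasma cells of replicate 1 and 44.4% of those of replicate 2, against 49.9% and 12.2% of cells with 0 gate UMIs. All 7 stromal markers were detected in the plasma cells of each replicate. The B cell list reached 3 UMIs in 1.02% of plasma cells of replicate 1, with Fcer2a at 0, and in 0 of 27 in replicate 2, with Pax5, Cd22, Fcer2a and Cr2 at 0. In the 56 plasma cells of replicate 1 with under 3 UMIs of every other list, Igha was dominant in 55 and kappa was the class of 53. The part of these other transcripts in the member levels was not tested.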

How the data were processed

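The deposited tables hold counts of UMIs per cell and gene, not normalised, made by the authors with the BD WTA Multiplex Rhapsody Analysis Pipeline 1.8 and GENCODE vM19 on GRCm38, per the file headers. The sample tag of each cell is a name (an other unit than a count) deposited by the authors from the same pipeline. HISAT2 2.0.5 and Bowtie2 are listed, with no role, per the submitters' processing notes. The 6 other sample tags, multiplets (349 and 572) and undetermined cells (508 and 1128) were not used.

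A cell needed 300 or more genes and no more than 25% mitochondrial UMIs (1945 and 4185 cells passed). Scrublet (scanpy 1.11.5) then took out 39 (2.01%) in replicate 1 but 6 (0.143%) in replicate 2, where it did not work. Doublets must be taken as present. Cells were assigned to the marker list, of 8, with most UMIs, at least 3. Share intervals are exact (Clopper-Pearson) and UMI intervals exact Poisson. Sums of UMIs were tested with edgeR 4.0.16 (R 4.3.3, TMM, filterByExpr, two-sided, adjusted p threshold 0.05). The fit was also run on simulated data with less spread than these sums and with changes balanced in direction. That run does not check the scaling of the real sums. Replicate was a block because both classes are cells of the same replicate. SE is the absolute log2 fold change over the square root of F. IgM against IgA and lambda against kappa cells were not tested, since sums under 10 cells were barred. Named were all members, the 5 genes with the largest change in each direction (adjusted p under 0.05, at least 50 UMIs, the same sign in both replicates, without gate, cell cycle, variable, diversity or joining genes), and the 5 most like Jchain. Members and lists were chosen with earlier results of these data known. Python 3.11.15, numpy 2.4.6, pandas 2.3.3, scipy 1.17.1, matplotlib 3.10.9 and DESeq2 1.42.0 (as an alternative) were used.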

Additional observations from a re-analysis of the deposited data

Results flagged for a closer look

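Ighg3, the constant gene of IgG3, is not a member and entered no comparison. It had 58 UMIs in plasma cells of replicate 1, of which 35 were in 1 cell, against 5 UMIs in all cells with 0 gate UMIs.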

How the results depend on the processing

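Of the 204 lower and 108 higher genes in cycling cells, counts changed most with DESeq2 (23 lower, 17 higher). Lower genes numbered 110 with no filter on low counts, 102 with a plasma gate of 5 UMIs and 77 with all tagged cells, and higher genes 190 with library size over genes that are not immunoglobulin genes. That last setting moved the median log2 fold change of all genes to −0.02. Ighm turned to −1.91 with a cycling gate of 5 UMIs, to −3.99 with the gate set in thinned cells and to −2.27 in IgA kappa cells alone. Igha, Igkc, Jchain, Ighg2b and the lambda genes were negative in all 11 settings, as fitted values. For Iglc1 the log2 ratio of CPM without the fit's scaling was 0.520 in replicate 1. With 1 replicate left out, Igha ran from −2.90 to −1.62, Igkc from −2.33 to −1.49 and Jchain from −3.23 to −1.56, with no test. Without the replicate block 136 genes were lower and 90 higher, and of the members Igha (adjusted p = 0.00101) and Igkc (0.00608) passed while Iglc1 (0.111) and Iglc2 (0.0627) did not. Cycling cells without markers of another class could not be fitted, since replicate 2 had 0 of them, and the alternatives for IgM and lambda cells gave no test.

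The IgA share kept within its interval under every alternative. The kappa share moved only in replicate 2 without cells holding other markers, to 100% (6 of 6 cells). The background shares fell with thinning to 68.7% and 11.5% for Igha and 91.4% and 21.4% for Igkc. Leaving out Igkc-rich cells, chosen after seeing the data, brought mean Igkc in cells with 0 gate UMIs to 13.4 UMIs, against 94.2 with them, in replicate 1, and to 0.929, against 2.46, in replicate 2. With 27 plasma cells in replicate 2, a class seen in 0 of them may still be up to 11.1% of cells.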
